A study of Mus musculus with 6 samples.

Results

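Sox7 and its closest relatives, Sox17 and Sox18, were followed together with 7 endothelial markers in sorted bulge stem cells (SCs) of the hair follicle, in all 6 libraries of the study. Sox7 was selected on its expression level, which was higher in ILK-K5 cells in these same libraries, so its difference is given as a description and without a test. The other 9 genes were chosen for what they are known to be, and all 10 were found by symbol among the 43274 genes of the table. The cells came from the epidermis of mice at postnatal day 21 and were sorted for surface CD34 and high α6 integrin. The control group (ILK +/-, 3 libraries) had 1 of its Ilk alleles floxed and in the ILK-K5 group (ILK -/-, 3 libraries) both were floxed, and all mice of both groups carried K5-Cre. Cre is driven by the keratin 5 promoter, so deletion is directed to keratinocytes. Whether a library came from 1 mouse or from several was not given in the sources used here, so p-values measure the spread between these libraries.

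Sox7, Sox17 and Sox18 form the SoxF group of transcription factors, which bind DNA through a conserved HMG box. They are best known from the developing blood and lymphatic vessels, where they act redundantly in arterial and lymphatic endothelium, and Sox7 is also known from early blood progenitors. The 7 markers are proteins of the endothelial surface and junctions. Pecam1 and Cdh5 (VE-cadherin) hold endothelial cells to each other, Esam is a tight junction adhesion molecule, and Emcn is a sialomucin of capillaries and veins. Kdr is the main signalling receptor for Vegfa, Tek (Tie2) is the receptor for angiopoietins, and Tie1 is its orphan relative. Endothelial cells carry both CD34 and α6 integrin, the proteins on which the cells were sorted.

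Each library held between 8228019 and 11969072 reads on genes, and mitochondrial genes took between 11.5% and 27.6% of them. The 8 bulge SC markers, among them Krt5, Krt15 and Sox9, were all measured, with a summed level between 3248 and 9377 FPKM in control and between 2275 and 4543 FPKM in ILK-K5 libraries. Cd34, which was used for the sort and is carried by endothelial cells too, was lower in ILK-K5 cells (log2 fold change -1.90, SE 0.37, limma adjusted p = 0.0239), a call that ended without control replicate 1 or 3 or ILK-K5 replicate 1 or 3 (adjusted p between 0.0572 and 0.0877). Reads assigned to Ilk itself could not serve as a check of genotype. It had 11, 11 and 53 reads in control and 13, 40 and 30 in ILK-K5 libraries, and 89.7% of its exon bases are shared with genes of the opposite strand.

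No exon base of Sox7 (chr14:63943673-63950732 on GRCm38, plus strand) is shared with another annotated gene. Sox7 was measured at 12.5, 42.6 and 65.3 normalised counts in control replicates 1, 2 and 3, and at 121, 197 and 168 in ILK-K5 replicates 1, 2 and 3. A normalised count is a gene's reads over a scaling factor that is set once per library. Every ILK-K5 library lay above every control library, with the lowest ILK-K5 value above the highest control value. The means were 40.1 ± 26.5 (SD, n = 3) and 162 ± 38.7 (SD, n = 3), a 4.03-fold difference, and the log2 fold change was 2.23 (SE 0.59). In 16368 genes with a mean of at least 10 normalised counts, the groups did not overlap in 17.9%, so that separation alone is common in these libraries. The control libraries differed among themselves by 5.21-fold and the ILK-K5 libraries by 1.64-fold. Leaving out control replicate 1, the lowest library, brought the log2 fold change to 1.57, and leaving out control replicate 3 raised it to 2.72.

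Sox17 and Sox18 were at or near the limit of detection. Sox17 (chr1:4490931-4497354, minus strand) had 4 reads in control replicate 1 and no read in the other libraries, and 16.8% of its exon bases are shared with an antisense gene. Sox18 (chr2:181669836-181671640, minus strand) had no read in the control libraries and 5, 1 and 4 reads in ILK-K5 replicates 1, 2 and 3. A count of 0 allows up to 3 reads in a library, counting error only, and no fold is given for either gene. Without a filter on low values neither was called by limma, with adjusted p = 0.837 for Sox17 and adjusted p = 0.336 for Sox18. Sox7 took 131 of 135 SoxF reads in control (97.0%) and 534 of 544 in ILK-K5 libraries (98.2%).

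**Figure D1:**
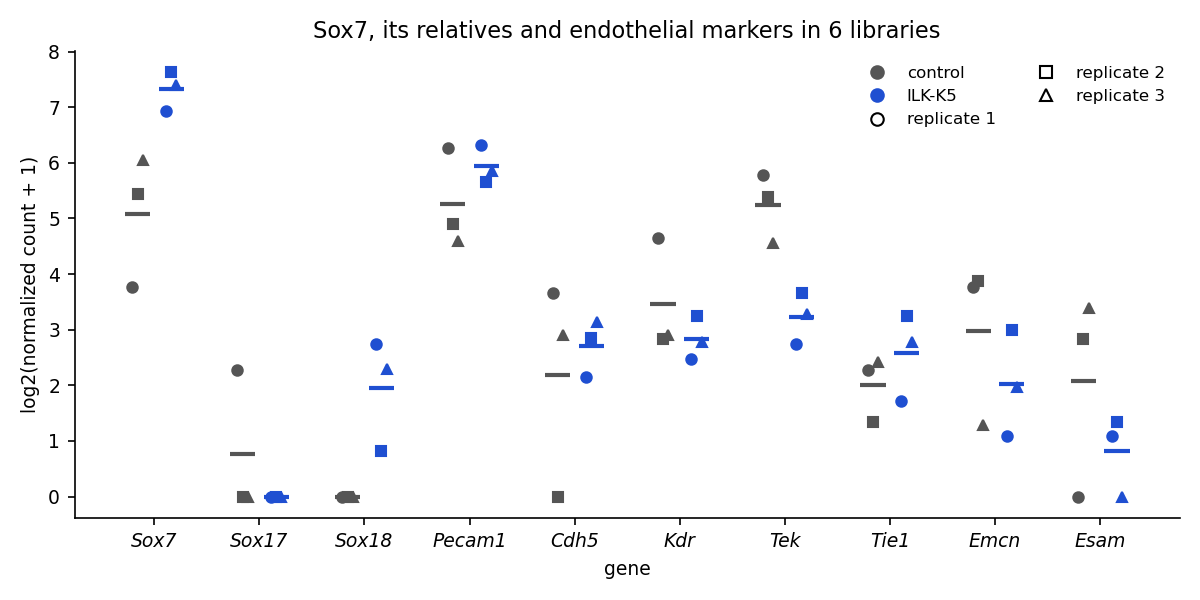
Level of each gene as log2(normalised count + 1) in the 3 control (grey) and 3 ILK-K5 (blue) libraries, with symbols for replicates and bars for group means. Sox7 was higher in each ILK-K5 library, Tek was lower in each, and the other endothelial markers overlapped between the groups.

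Among the adhesion molecules, only Pecam1 had enough reads for a test. Pecam1 (chr11:106654217-106750628, minus strand) was measured at 76.2, 28.9 and 23.2 normalised counts in control and at 78.6, 49.4 and 56.5 in ILK-K5 libraries. The groups overlapped, since control replicate 1 was above ILK-K5 replicates 2 and 3. The log2 fold change was 0.68 (SE 0.53, limma adjusted p = 0.760), and it reached 1.19 without control replicate 1 (adjusted p = 0.341). Cdh5 (chr8:104101625-104144511, plus strand), the most specific endothelial cadherin, had 12, 0 and 9 reads in control and 3, 8 and 8 in ILK-K5 libraries. Esam (chr9:37528078-37538319, plus strand) had 0, 4 and 13 reads in control and 1, 2 and 0 in ILK-K5 libraries. Emcn (chr3:137341067-137432185, plus strand) had 13, 9 and 2 reads in control and 1, 9 and 3 in ILK-K5 libraries. For Cdh5, Esam and Emcn the groups overlapped, and at these read numbers a difference was not detectable.

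Among the receptors, Tek moved in the direction opposite to Sox7. Tek (chr4:94739289-94874976, plus strand) was measured at 54.0, 41.1 and 22.5 normalised counts in control and at 5.69, 11.6 and 8.77 in ILK-K5 libraries. All 3 ILK-K5 libraries lay below all 3 control libraries, and the control mean was 39.2 ± 15.9 (SD, n = 3) where the ILK-K5 mean was 8.68 ± 2.94 (SD, n = 3). The log2 fold change was -2.02 (SE 0.61), which did not pass the test over all genes (limma, unadjusted p = 0.00879, adjusted p = 0.144). Over the alternatives its adjusted p lay between 0.0482 and 0.400, and only DESeq2 called it (log2 fold change -2.15, adjusted p = 0.0482), a tool that called 4.95% of the 20919 genes to which it gave an adjusted p. Tek passed the filter through its control level, and its summed evidence is small, with 5, 15 and 9 reads in the ILK-K5 libraries against 56, 27 and 31 in control. Among 6 melanocyte markers limma called Mitf lower and none higher, where 0.599% of all genes tested were called lower. The call of Mitf ended without control replicate 2 or ILK-K5 replicate 2 (limma adjusted p = 0.0638 and 0.0688). Mitf was at 18.7, 14.3 and 9.83 FPKM in control and at 4.26, 3.17 and 4.19 FPKM in ILK-K5 libraries. The sum of the other 5 markers overlapped between the groups, between 3.64 and 7.76 FPKM in control and between 3.32 and 8.13 FPKM in ILK-K5 libraries. The part of melanocytes in the Tek difference was not tested.

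Kdr (chr5:75932827-75978458, minus strand) had 25, 4 and 9 reads in control and 4, 11 and 6 in ILK-K5 libraries. Its higher control mean rested on control replicate 1. Without a filter its log2 fold change was -0.63 (SE 0.88, limma adjusted p = 0.837), and it was -0.04 when that library was left out. Tie1 (chr4:118471191-118490061, minus strand) had 4, 1 and 6 reads in control and 2, 11 and 6 in ILK-K5 libraries, so the groups overlapped.

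Of the 10 genes, only Sox7, Pecam1 and Tek passed the filter, and the other 7 had at most 25 reads in any library. limma called 0 of the 2 testable genes other than Sox7 at an adjusted p of at most 0.05, and 1 of them, Tek, had an unadjusted p under 0.05. edgeR called 0 and DESeq2 called Tek. Over all genes tested, limma called 3.53% (577 of 16368), of which 479 were higher (2.93%) and 98 lower (0.599%) in ILK-K5 cells. An unadjusted p under 0.05 (limma) was found for 2011 of these 16368 genes, and edgeR called 509 of them. Without a filter, limma called 1.78% of 34213 genes and 0 of the 9 genes other than Sox7.

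Compared per length, Sox7 stood above the endothelial markers in nearly every library. FPKM, fragments scaled to transcript length and library size, allows levels of different genes to be set side by side. Sox7 was measured at 0.390, 1.32 and 2.03 FPKM in control and at 3.75, 6.14 and 5.21 FPKM in ILK-K5 libraries. The summed level of the 7 endothelial markers was 3.39, 1.96 and 1.59 FPKM in control and 1.68, 1.71 and 1.58 FPKM in ILK-K5 libraries. Its mean was 2.31 ± 0.95 FPKM (SD, n = 3) for the control group. For the ILK-K5 group it was 1.66 ± 0.066 FPKM (SD, n = 3), which is 0.716 of the control mean, while Sox7 was 4.03-fold higher. Within this sum Tek was lower in each ILK-K5 library, while Pecam1 had a higher ILK-K5 mean but overlapped between the groups. Without Pecam1 the sum was 2.13, 1.49 and 1.21 FPKM in control and 0.386, 0.894 and 0.651 FPKM in ILK-K5 libraries, lower in each ILK-K5 library and 0.400 of the control mean. Most of that difference was Tek, with means of 0.853 FPKM in control and 0.189 FPKM in ILK-K5 libraries. Each of the remaining markers overlapped between the groups. The ratio of Sox7 to the endothelial sum was 0.115, 0.674 and 1.28 in control and 2.23, 3.60 and 3.29 in ILK-K5 libraries. Sox7 was above each of the 7 markers in 5 libraries, and above 5 of the 7 in control replicate 1, where Pecam1 (1.25 FPKM) and Tek (1.18 FPKM) were higher. Control replicate 1 was thus the lowest of the 6 libraries for Sox7 and the highest for the sum of these 7 markers.

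**Figure D2:**
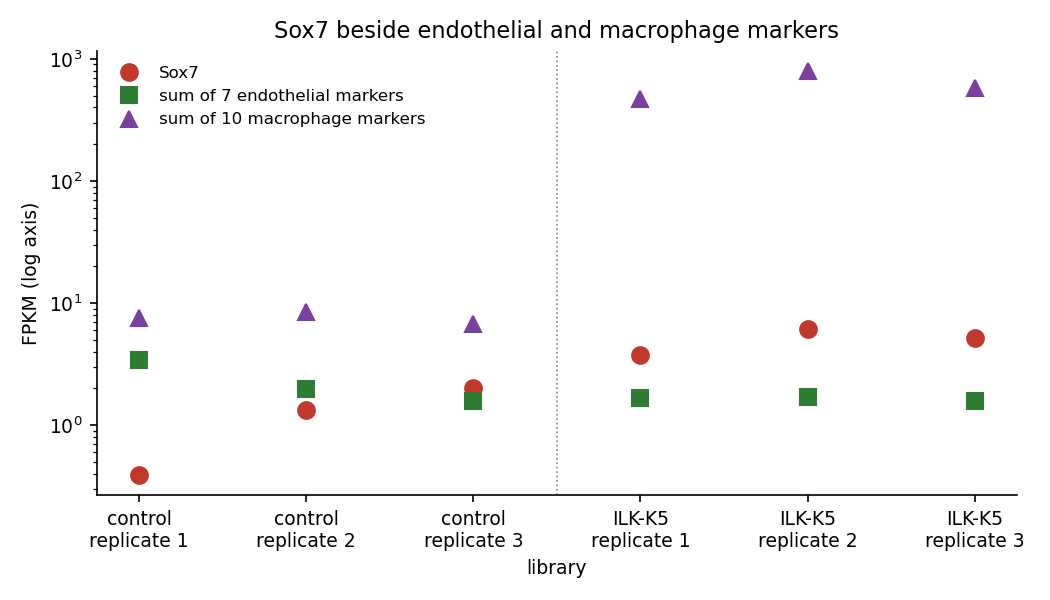
Level in FPKM on a log axis of Sox7 (circles), of the sum over 7 endothelial markers (squares) and of the sum over 10 macrophage markers (triangles) in each library. The endothelial sum lay between 1.58 and 3.39 FPKM. Within it Tek was lower in each ILK-K5 library and Pecam1 overlapped between the groups. The macrophage sum was at most 8.43 FPKM in control and at least 469 FPKM in ILK-K5 libraries.

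Over the 6 libraries the mean level of Sox7 was 3.14 FPKM, above 72.9% of 34213 genes with a read. Pecam1 followed at 0.858 FPKM (above 55.4% of genes) and Tek at 0.521 FPKM (above 48.6%). The remaining genes were at 0.152 FPKM for Cdh5, 0.131 for Kdr, 0.122 for Emcn, 0.109 for Sox18, 0.108 for Esam, 0.0915 for Tie1 and 0.0138 for Sox17. Within the ILK-K5 libraries the order of Sox7, Pecam1 and Tek held without overlap, whereas in control libraries the ranges of these 3 genes overlapped. From Cdh5 down to Tie1, neighbours in this order did not differ beyond their spread over libraries.

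Macrophage markers differed between the groups in the same direction as Sox7. All 10 markers of the list (Lyz2 and the C1q genes were among them) were called higher in ILK-K5 cells by limma, with a median log2 fold change of 6.26. Over all genes tested, 2.93% were called higher. C1qa, C1qb, C1qc and Mrc1 passed the filter through their ILK-K5 level only, and 2 of the 10 (C1qa and C1qb) had at most 3 reads in each control library. The summed level of the 10 markers was between 6.80 and 8.43 FPKM in control and between 469 and 796 FPKM in ILK-K5 libraries. Within the ILK-K5 group the sum had the same order as Sox7, but most single markers did not. Of the 10 markers, 6 were highest in replicate 1, where Sox7 was lowest, and 4 in replicate 2, where Sox7 was highest. The sum without Lyz2, its largest part, was 317, 391 and 299.7 FPKM in ILK-K5 replicates 1, 2 and 3. Within the control group, Sox7 varied by 5.21-fold while the macrophage sum varied by 1.24-fold, and control replicate 3, with the most Sox7, had the lowest macrophage sum. Mitochondrial reads were also fewest in the library with the most Sox7 of each group, at 11.5% in control replicate 3 and 14.4% in ILK-K5 replicate 2. The part of these in the difference of Sox7 was not tested. In bulk RNA, more cells of a type and more RNA per cell cannot be told apart.

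Of 20 further endothelial genes, 9 passed the filter, 2 were called higher and 0 lower by limma, and edgeR and DESeq2 each called 2. Over all genes tested, limma called 2.93% higher and 0.599% lower, and edgeR called 509 of 16368. DESeq2 called 4.95% of the genes to which it gave an adjusted p. Of the 9, 4 had an unadjusted p under 0.05 (limma), against 2011 of all 16368 genes tested. The summed level of the 20 genes was between 4.10 and 6.35 FPKM in control, lowest in control replicate 1. It was between 8.11 and 11.2 FPKM in ILK-K5 libraries. Most of that difference came from Fli1, Lyve1 and Flt1, so the sum does not show a rise across the list. Their means were 0.157, 0.439 and 0.291 FPKM in control and 1.83, 1.78 and 1.47 FPKM in ILK-K5 libraries. Ecscr had a lower ILK-K5 mean (0.816 against 1.53 FPKM). Of the 9 tested genes, 7 had a log2 fold change above 0 and 2 below 0. Eng, Fli1 and Prox1 passed the filter through their ILK-K5 level only, so the median of the 9 (log2 fold change 1.66) is raised by the filter. The limma counts are raised too, since Fli1 was 1 of the 2 calls and Fli1 and Eng were among the 4. Over all 20 genes without a filter the median was 0.60, against -0.10 over the 34213 genes with a read. Flt1, a receptor for Vegfa and Pgf, had 57, 12 and 35 reads in control and 130, 215 and 189 in ILK-K5 libraries, and its log2 fold change was 2.45 (SE 0.46, limma adjusted p = 0.0208). Fli1, an Ets factor of endothelial and blood cells, had 12, 1 and 4 reads in control and 48, 96 and 60 in ILK-K5 libraries. Its log2 fold change was 3.66 (SE 0.71, limma adjusted p = 0.0239). Without a filter the limma adjusted p was 0.0128 for Flt1 and 0.0223 for Fli1. Both calls were kept without control replicate 1 (limma adjusted p = 0.00507 for Flt1 and 0.00441 for Fli1) and without control replicate 3 (0.0433 and 0.0450). Without control replicate 2, or without ILK-K5 replicate 1, 2 or 3, the limma adjusted p lay between 0.0661 and 0.121 for Flt1 and between 0.0784 and 0.154 for Fli1. Both genes are also known from cells of the monocyte lineage, whose markers rose as given above, and the part of those cells in the calls was not tested.

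Lyve1, a hyaluronan receptor of lymphatic endothelium that some macrophages carry too, had 12, 12 and 5 reads in control and 32, 76 and 42 in ILK-K5 libraries, and was not called (log2 fold change 2.13, limma adjusted p = 0.158). Eng, a Tgf-β co-receptor, had 7, 5 and 21 reads in control and 26, 42 and 33 in ILK-K5 libraries and was not called either (log2 fold change 1.66, limma adjusted p = 0.234). For Ecscr, Vwf and Erg the groups overlapped. Ecscr, the endothelial list's highest gene at 1.18 FPKM, had 2, 34 and 30 reads in control and 5, 32 and 10 in ILK-K5 libraries (log2 fold change -0.31). Vwf, von Willebrand factor, had a log2 fold change of -0.21 (SE 0.43), and Erg, an Ets factor that in adult tissue marks endothelium, of 0.13 (SE 0.63), with limma adjusted p = 0.930 and 0.970. Cldn5, a claudin of endothelial tight junctions, had at most 3 reads in any library.

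**Figure D3:**
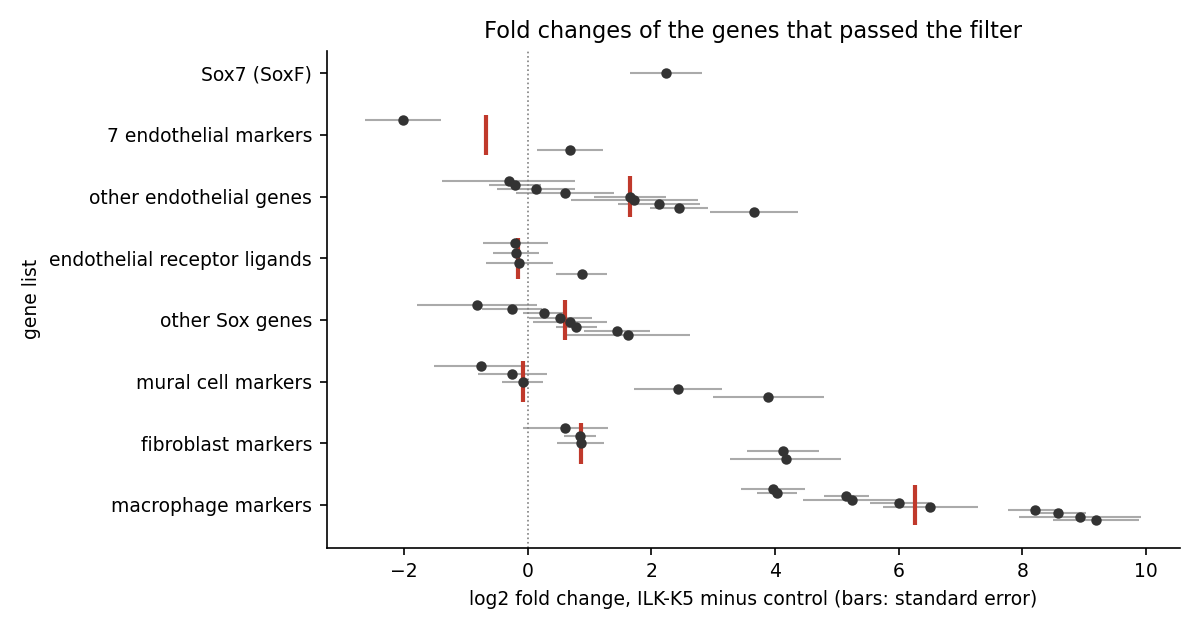
log2 fold change with its standard error (limma) of each gene that passed the filter, by list, with red lines for the median of each list. Sox7 (2.23) lay above both testable endothelial markers and below the median of the macrophage list (6.26).

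The ligands of the endothelial receptors showed no call among the 4 of 8 that passed the filter (limma, 0 also at an unadjusted p under 0.05, edgeR 0, DESeq2 1 of the 8). Vegfa, the ligand of Kdr and Flt1, had 231, 77 and 113 reads in control and 272, 276 and 207 in ILK-K5 libraries (log2 fold change 0.87, SE 0.41, limma adjusted p = 0.456). Vegfb and Vegfd had log2 fold changes of -0.20 and -0.19, and the Tek ligand Angpt2 of -0.14. Angpt1, the agonist of Tek, had at most 7 reads in any library. Pgf, a ligand of Flt1, had 0, 0 and 1 reads in control and 11, 29 and 18 in ILK-K5 libraries. It was below the filter, and was called without it (limma adjusted p = 0.0380) and by DESeq2 (adjusted p = 0.00815). Vegfc, the lymphatic ligand, had no read in control and 9, 7 and 5 reads in ILK-K5 libraries, and was called by neither (limma without a filter, adjusted p = 0.0932).

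Among 16 other Sox genes, 8 passed the filter and limma called 0 (edgeR and DESeq2 called 0), with a median log2 fold change of 0.61. An unadjusted p under 0.05 (limma) was found for 2 of the 8, against 2011 of all 16368 genes tested. Sox9, the Sox factor of bulge SCs, was the highest at 57.8 FPKM and overlapped between the groups (log2 fold change 0.26, SE 0.33, limma adjusted p = 0.881). Sox9 exceeded Sox7 by 115-fold, 33.6-fold and 32.8-fold in control and by 10.6-fold, 13.0-fold and 13.7-fold in ILK-K5 libraries, on the FPKM scale. Sox21, at 4.98 FPKM, was higher in each ILK-K5 library than in each control library without being called (log2 fold change 0.79, SE 0.33, limma adjusted p = 0.364), and so was Sox13 (1.44, SE 0.54, limma adjusted p = 0.270). The groups did not overlap in 17.9% of all genes tested. Sox15, at 3.03 FPKM, close to Sox7 in level, overlapped between the groups. Sox2, Sox3 and Sox14 had no read in any library.

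The profile of Sox7 over the 6 libraries was compared with that of 16103 genes that passed the filter and have a symbol. Likeness was taken as the root mean square difference of log2(normalised count + 1) values, each gene centred on its own mean. Casp4, an inflammatory caspase, was the nearest at 0.042 log2 units, with 2.89, 12.2 and 18.9 normalised counts in control and 35.3, 57.8 and 45.8 in ILK-K5 libraries. Its level was about as far apart between the groups as that of Sox7, with a log2 fold change of 2.21. Tgfb1, encoding Tgf-β1, followed at 0.15, with 15.4, 38.0 and 68.2 normalised counts in control and 114, 219 and 163 in ILK-K5 libraries. Next were Glul (glutamine synthetase) at 0.22, Stk17b (a kinase abundant in lymphocytes) at 0.24 and Cdk18 (a cyclin-dependent kinase) at 0.26. All 5 were lowest in control replicate 1, as was Sox7. The 5 genes were chosen for likeness to Sox7, so this and the similar fold change of Casp4 came with the choice.

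Of the 7 endothelial markers only Pecam1 and Tek passed the filter and could be compared. Pecam1 ranked 9637 of 16103 (1.48 log2 units) and Tek 15597 (2.36 log2 units). The nearest gene of the 20 further endothelial genes was Eng, ranked 147 (0.58 log2 units), with Flt1 at 2948 and Fli1 at 10128. Of the macrophage markers, Cd68 was the nearest, ranked 3026 (1.12 log2 units), Itgam ranked 10852, Csf1r 15336 and C1qc 16091. Genes of other lists were nearer than Cd68, with Sox15 at 318, Krt14 at 547, Col1a1 at 1151, Sox21 at 1197 and Pdgfrb at 1837. Among the keratins of the bulge SC list, Krt5 (5957) and Krt15 (13246) were farther than Cd68. The measure weighs the size of a change as well as its shape, and it is a description over 6 libraries that share their size factors.

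**Figure D4:**
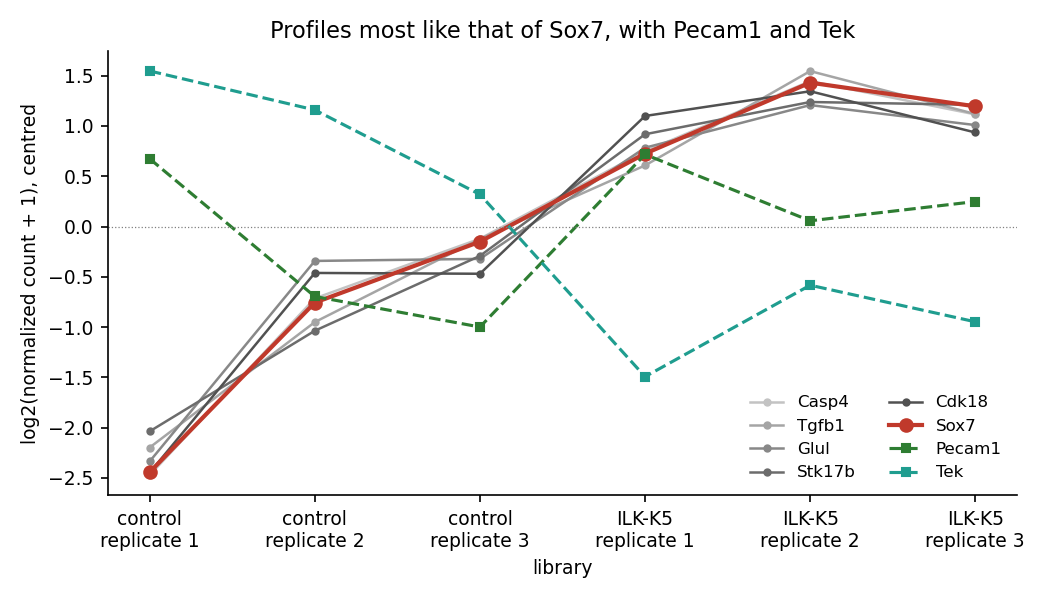
log2(normalised count + 1), centred on each gene's mean, in the 6 libraries, for Sox7 (red), the 5 genes nearest to it (greys), Pecam1 and Tek (dashed). The 5 genes were chosen for this likeness. Tek ran from high in control to low in ILK-K5 libraries, and Pecam1 was high in replicate 1 of both groups.

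Markers of the other cell types of the vessel wall and dermis were measured alongside. Of 8 mural cell markers 5 passed the filter and limma called 0 (edgeR called 1 and DESeq2 2). Of the 5, 2 (Pdgfrb and Acta2) had an unadjusted p under 0.05 (limma), against 2011 of all 16368 genes tested. Pdgfrb passed the filter through its ILK-K5 level only, with means of 0.484 normalised counts in control and 19.9 in ILK-K5 libraries. The summed level of the 8 was between 6.64 and 13.2 FPKM in control and between 10.8 and 16.8 FPKM in ILK-K5 libraries. Cspg4 was the largest part of that sum, with means of 7.60 FPKM in control and 7.20 FPKM in ILK-K5 libraries. The means of Acta2 were 1.30 and 5.58 FPKM. Of 7 fibroblast markers 5 passed and limma called 2 higher, Col3a1 and Dpt, where 2.93% of all genes tested were called higher. Dpt passed the filter through its ILK-K5 level only, with means of 0.726 normalised counts in control and 27.3 in ILK-K5 libraries. The call of Dpt ended without control replicate 2 or without any 1 ILK-K5 library (limma adjusted p between 0.0981 and 0.255). The summed level of the 7 was between 10.1 and 14.6 FPKM in control and between 23.5 and 32.6 FPKM in ILK-K5 libraries. At most 3 reads in each control library were found for 3 of the mural and 2 of the fibroblast markers. The part of both lists in the Sox7 difference was not tested. In all 6 libraries these sums, like that of the endothelial markers, were small beside the sum of the bulge SC markers. That sum was mostly keratin. In ILK-K5 libraries Krt15, Krt5 and Krt14 had means of 1541, 1523 and 568 FPKM, against 6.05 for Cd34 and 11.7 for Nfatc1. The macrophage sum was larger than the mural and fibroblast sums in ILK-K5 libraries, at 469 to 796 FPKM. Such sums do not give the share of each cell type.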

How the data were processed

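RNA of sorted bulge SCs was amplified as cDNA (Ovation V2) and sequenced from Nextera XT libraries, which do not keep strand. Per the labels, reads were aligned to GRCm38 with TopHat2 2.0.14 and Bowtie2 2.2.4. The authors divided read counts by DESeq2 1.6.3 size factors and deposited this normalised signal and FPKM values. The program that counted reads is not given in the sources used here. Tables of the authors' own comparison (fold changes and p-values) were not used.

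All values were whole multiples of 1 read per library (100%, tolerance 0.001 reads), worth 0.726 to 1.52 normalised counts, so reads were recovered. log2(normalised count + 1) was compared with limma 3.58.1 (eBayes with trend) in R 4.3.3 for 16368 genes with a mean of at least 10, with Benjamini-Hochberg adjustment and calls at an adjusted p of at most 0.05. edgeR 4.0.16 (quasi-likelihood) and DESeq2 1.42.0 on recovered reads were alternatives, as were other pseudocounts, filters and scalings and leaving out each library. Scripts were tested on simulated data. Positions on GRCm38 and overlaps are from GENCODE M21, and sequences are not reported here. Symbols were found for 97.3% of genes.

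The 10 genes and all lists were chosen with earlier results of these data known. In each list the 3 genes highest in FPKM, the called genes and genes on whose level a sentence turns were to be named, with the 5 genes nearest to Sox7 in profile. Cell type lists, of 6 to 10 genes, are mostly given as counts and sums.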

Additional observations from a re-analysis of the deposited data

How the results depend on the processing

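Sox7 was higher in ILK-K5 cells in all 17 alternatives (log2 fold change 1.57 to 2.72). Tek was lower in all 16 in which it was measured (-2.36 to -1.50), as a filter at a mean of 50 removed it. Sox7 was selected as higher in these same libraries, and the groups overlapped for neither gene. These directions were therefore largely fixed beforehand, and only the size of the differences was open. Called genes other than Sox7 numbered 0 under each alternative except DESeq2, which called 1, Tek. Over all genes limma called 577, DESeq2 called 1036, and leaving out 1 library gave between 254 (without ILK-K5 replicate 2) and 656 (without control replicate 3), with 345 without control replicate 2, 308 without ILK-K5 replicate 1 and 286 without ILK-K5 replicate 3. The cause was not tested. Without a filter the median of all genes shifted to -0.10 and with DESeq2 to -0.17 on the log2 scale. The calls of Flt1 and Cd34 narrowly ended on the FPKM table (adjusted p = 0.0522 and 0.0509), that of Cd34 with replicates 2 and 3 only (0.137), and that of Dpt with a pseudocount of 0.1 (0.109) and with replicates 2 and 3 only (0.0995). With the replicate number as a block, limma called 1117 genes and again 0 of the genes other than Sox7 (Tek, adjusted p = 0.0857). Same-numbered libraries deviated from their group means with correlations of 0.53, 0.020 and 0.31. Control replicate 2 correlated best with ILK-K5 replicate 3 (0.074), and control replicate 3 with ILK-K5 replicate 2 (0.50). The numbers were not taken as pairs, but with groups of 3 libraries these correlations cannot decide whether they are. Same-numbered libraries of the 2 groups do share a code in the labels, and the study's controls were littermates, but that a code marks a litter is not given in the sources used here. Of the 10 genes, 7 were below the filter, and few reads limit what could be seen in them.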
